A study of Homo sapiens with 6 samples.

Results

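The sialyltransferases of the ST3GAL and ST6GAL families were followed after GNE silencing in Capan-1, a cell line derived from human pancreatic carcinoma. The members were the 8 genes ST3GAL1 to ST3GAL6, ST6GAL1 and ST6GAL2, read by every probe set that the array annotation assigns to one of these genes alone. This gave 27 of the 54675 probe sets on the array. The comparison used 6 arrays, 3 of cells transfected with small interfering RNA (siRNA) against GNE, called siGNE, and 3 of cells transfected with a control siRNA named allStar in the labels. Both groups had been transfected 2 times, 48 h apart, with harvest at 72 h from the second, so the controls carry the transfection as well. The arrays are numbered 1 to 3 in each group, and arrays of one number are called a pair. The cells are of a single line. The labels do not give the number or sequence of the GNE siRNAs, nor whether each array had a culture of its own. A p-value here therefore reflects variation among the arrays that could be technical.

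Sialic acid is the usual last sugar of the glycans on cell surface proteins and lipids. It is made in the cytosol by a pathway that GNE opens, activated to CMP-sialic acid in the nucleus, carried into the Golgi and there transferred to terminal galactose by sialyltransferases. ST3GAL enzymes attach it in α2,3 linkage and ST6GAL enzymes in α2,6 linkage, and each prefers certain galactose acceptors on N-glycans, mucin-type O-glycans or glycolipids. In pancreatic ductal carcinoma the family is known for its part in the sialyl Lewis a antigen, the epitope of the tumour marker CA19-9. Silencing GNE could limit the donor sugar, which was not measured here. The comparison asks whether transcripts of the enzymes that use this donor differ.

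GNE itself read 8.39, 9.86 and 9.57 in the siGNE arrays 1, 2 and 3, against 11.12, 11.47 and 10.86 in the control arrays, on the log2 scale of the deposited GCRMA values. All siGNE values lay below all control values, and GNE fell in the limma fit that takes the pair into account (adjusted p 0.0348) but not in the fit without pairs (adjusted p 0.131). The ductal epithelial markers were strong, with all 8 genes above 4 and a mean log2 value over the list of 13.50 to 13.71 in siGNE arrays and 13.40 to 13.61 in control arrays. None of the 4 endothelial, 3 leukocyte and 4 acinar or islet markers with a probe set reached 4. Of 6 fibroblast markers, 5 were near background and COL1A1 read 8.74 ± 0.53 in siGNE cells and 8.03 ± 0.69 in control cells (SD, n = 3 arrays each), a rise with the pair block (limma adjusted p 0.0441) and not without it (limma adjusted p 0.512). The mean log2 value of the fibroblast list was 3.64 to 3.84 in siGNE arrays and 3.53 to 3.76 in control arrays, and its part in the values below was not tested. The arrays of number 3 stood apart from the others, with limma array weights of 0.42 for siGNE and 0.48 for control, against 1.27 to 2.19 for the other 4.

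In brief, 10 of the 27 sialyltransferase probe sets, from 6 of the 8 genes, had a mean above 4 on the log2 scale and were tested, and 0 of the 10 passed at an adjusted p under 0.05 in limma with or without the pair block. The α2,6 enzyme of N-glycans, ST6GAL1, and the α2,3 enzyme of sialyl Lewis a synthesis, ST3GAL3, came nearest, at 83.2% and 74.9% of control. GM3 synthase, ST3GAL5, stood at 100.4% of control. ST3GAL6 and ST6GAL2 had no probe set with a mean above 4. Arrays have no read depth, and their number limits the precision. Because the background was modelled by the authors, values near the array medians of about 3 are close to background and changes there can be lost. In RNA from a whole culture, fewer cells that express a gene and less RNA per cell cannot be told apart.

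**Figure D1:**
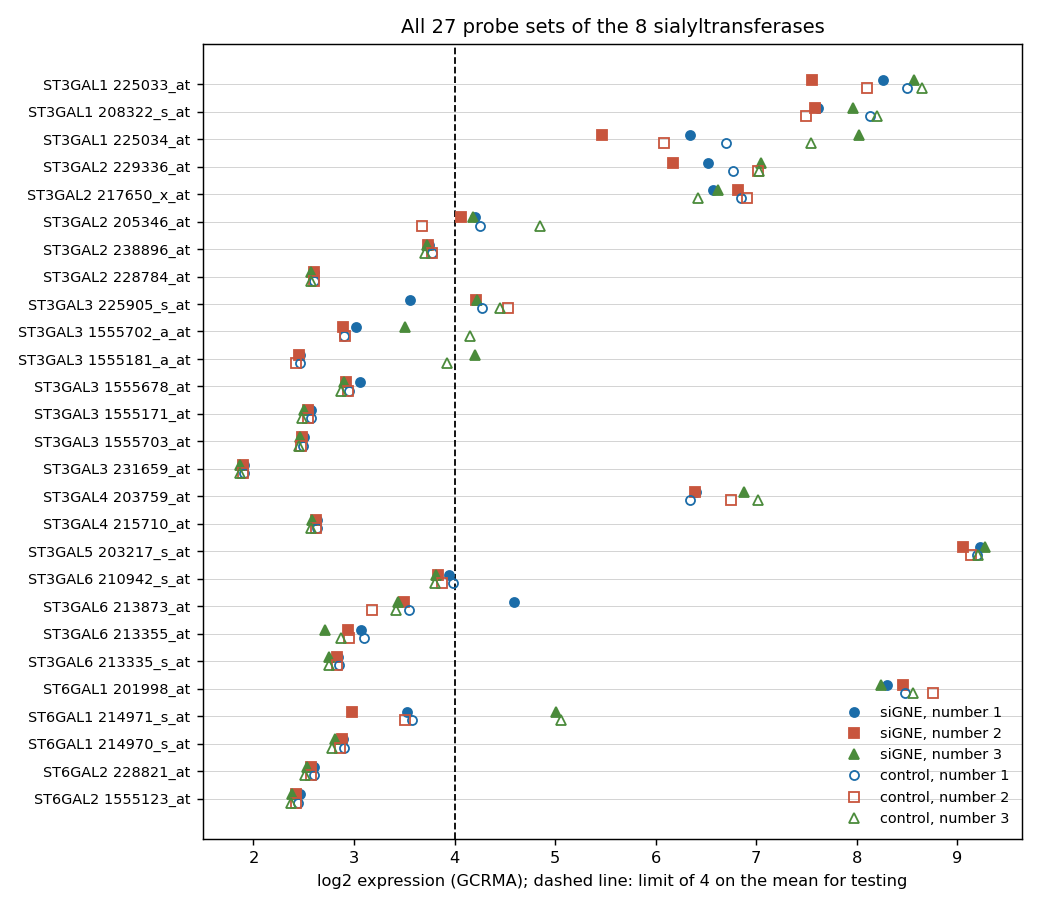
Log2 expression (GCRMA) of all 27 probe sets on each of the 6 arrays, with filled symbols for siGNE arrays, open symbols for control arrays and 1 symbol shape per array number. The dashed line at 4 is the limit on the mean for testing, and the 17 probe sets with a mean at or below it include all of ST3GAL6 and ST6GAL2; levels of different probe sets are not comparable.

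The windows around the transcription starts of ST3GAL3 and ST6GAL1 are shown because these were the members whose siGNE values all lay below their control values. Both come from RefSeq (GRCh38.p14) and span 300 bases, most of them before the start, written along the gene. The ST3GAL3 window is chr1:43707286-43707585 and the ST6GAL1 window is chr3:186930276-186930575, both on the + strand. Capitals mark the CCAAT box (CCAAT or its complement ATTGG) and the GC box (GGGCGG or its complement CCGCCC).
ST3GAL3: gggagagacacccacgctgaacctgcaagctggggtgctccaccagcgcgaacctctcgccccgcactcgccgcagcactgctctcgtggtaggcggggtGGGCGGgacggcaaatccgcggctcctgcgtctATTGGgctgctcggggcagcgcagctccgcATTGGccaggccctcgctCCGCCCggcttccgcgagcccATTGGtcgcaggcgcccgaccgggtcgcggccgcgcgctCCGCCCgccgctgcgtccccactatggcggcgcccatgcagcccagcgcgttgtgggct
ST6GAL1: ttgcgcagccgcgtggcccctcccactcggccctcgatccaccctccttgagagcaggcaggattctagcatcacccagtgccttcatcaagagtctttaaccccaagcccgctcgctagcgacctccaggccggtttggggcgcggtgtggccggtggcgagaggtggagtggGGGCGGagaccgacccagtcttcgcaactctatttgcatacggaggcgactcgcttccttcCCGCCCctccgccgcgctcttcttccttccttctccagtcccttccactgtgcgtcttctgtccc
The ST3GAL3 window held 3 CCAAT boxes and 3 GC boxes, 39 CG dinucleotides and 73.7% G or C. That of ST6GAL1 held 0 CCAAT boxes and 2 GC boxes, 24 CG dinucleotides and 64.0% G or C. Over all 35116 windows of the RefSeq table the medians were 14 CG dinucleotides and 58.7% G or C, 34.6% of windows held a CCAAT box, 3.26% held 3 or more, and 45.0% held a GC box. The table matched 6 of the 8 members, ST3GAL3, ST3GAL4, ST3GAL5, ST3GAL6, ST6GAL1 and ST6GAL2, with 18 windows for their alternative starts, from 45.7% to 80.3% G or C. Of these, 8 held a CCAAT box, 12 a GC box and 0 the TATA box letters TATAAA or TTTATA, which 11.5% of all windows hold. Windows of the same gene can overlap, as some of ST3GAL5 and ST6GAL2 do, so the same box can be counted more than once. The members near background, ST3GAL6 and ST6GAL2, had windows with as much as 72.7% G or C each. These are letters in a window, and the start that Capan-1 cells use was not measured.

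ST6GAL1, which adds α2,6 sialic acid to the N-acetyllactosamine ends of N-glycans, was lower in every pair by a small amount. Its main probe set 201998_at read 8.30, 8.46 and 8.24 in siGNE arrays 1, 2 and 3, against 8.48, 8.75 and 8.56 in control arrays. The groups did not overlap, though the highest siGNE value, of number 2, and the lowest control value, of number 1, were close. The difference was -0.26 (SE 0.13, 95% interval -0.58 to 0.05), with a limma adjusted p of 0.427 without the pairs. With the pair block the limma standard error was 0.09, the interval -0.49 to -0.04 and the adjusted p 0.113. The pairs gave -0.19, -0.30 and -0.31, and the exact two-sided permutation p was 0.1, the smallest that 3 against 3 arrays allow. ST6GAL1 was thus the member whose pairs were most alike among those lower in all 3, yet it did not pass over all probe sets.

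The other 2 ST6GAL1 probe sets were too dim to test. The first, 214971_s_at, read 3.52, 2.98 and 5.01 in siGNE arrays against 3.58, 3.51 and 5.05 in control arrays, so it exceeded 4 on both arrays of number 3 and on no other. The second, 214970_s_at, stayed between 2.78 and 2.90 on every array. ST6GAL2, the other α2,6 enzyme, whose expression is known to be narrow and highest in brain, was near background in all 6 arrays. Its probe sets read 2.53 to 2.60 (228821_at) and 2.38 to 2.46 (1555123_at) in siGNE arrays, against 2.51 to 2.60 and 2.37 to 2.44 in control arrays.

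ST3GAL3 prefers galactose on type 1 chains, the backbone of sialyl Lewis a, and ST3GAL4 and ST3GAL6 prefer type 2 chains and contribute to sialyl Lewis x. ST3GAL3 was read by 1 tested probe set, 225905_s_at, at 3.56, 4.21 and 4.23 in siGNE arrays against 4.27, 4.53 and 4.45 in control arrays. All siGNE values lay below all control values, with the siGNE array of number 1 the lowest by far. The difference was -0.42 (SE 0.21, 95% interval -0.93 to 0.10), with a limma adjusted p of 0.442, and 0.101 with the pair block (interval -0.74 to -0.09). By pair it was -0.71, -0.32 and -0.22, with an exact two-sided permutation p of 0.1. It shrank to -0.20 without the siGNE array of number 1, and to -0.27 with values under 4 set to 4. With both arrays of number 1 left out, in the fit with the pair block, it was -0.27. Its size thus rests in part on the siGNE array of number 1, and the values of every array lay near the limit of 4.

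The other 6 ST3GAL3 probe sets had means below 4. Of these, 1555181_a_at read 2.46, 2.45 and 4.20 in siGNE arrays against 2.46, 2.43 and 3.92 in control arrays. The probe set 1555702_a_at read 3.02, 2.89 and 3.51 in siGNE arrays against 2.90, 2.91 and 4.15 in control arrays. Both were high on the arrays of number 3 in both groups, as was 214971_s_at of ST6GAL1, while the other 4 stayed between 1.87 and 3.05 on all arrays. Which transcripts of ST3GAL3 these probe sets read is not given in the sources used here.

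ST3GAL4 did not pass, and its values varied between arrays within each group. The probe set 203759_at read 6.40, 6.39 and 6.88 in siGNE arrays against 6.34, 6.75 and 7.02 in control arrays, with the groups overlapping. The difference of -0.14 (SE 0.23, 95% interval -0.70 to 0.41) had a limma adjusted p of 0.860 and, with the pair block, 0.438. Number 1 was higher by 0.07, and numbers 2 and 3 were lower, at -0.35 and -0.14. The other ST3GAL4 probe set, 215710_at, lay between 2.57 and 2.63 on every array.

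ST3GAL6 had 4 probe sets with means below 4, which were not tested. The brightest on average, 210942_s_at, read 3.94, 3.84 and 3.81 in siGNE arrays against 3.98, 3.87 and 3.80 in control arrays, without separation. The probe set 213873_at read 4.59, 3.50 and 3.43 in siGNE arrays against 3.54, 3.18 and 3.41 in control arrays, so the siGNE array of number 1 alone stood above 4. The last pair of probe sets, 213355_at and 213335_s_at, ran from 2.71 to 3.07 in siGNE arrays and from 2.75 to 3.10 in control arrays.

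ST3GAL1 and ST3GAL2 sialylate the core 1 disaccharide of mucin-type O-glycans, and ST3GAL2 also acts on gangliosides. Neither passed, and their probe sets disagreed from pair to pair. ST3GAL1 at 225033_at read 8.26, 7.56 and 8.57 in siGNE arrays against 8.50, 8.10 and 8.64 in control arrays. It was lower in all 3 pairs, at -0.24, -0.54 and -0.07, but the groups overlapped, and number 2 was the lowest in both. The difference was -0.29 (SE 0.29, 95% interval -0.99 to 0.42), with a limma adjusted p of 0.743, and 0.181 with the pair block. Without the siGNE array of number 2 the difference was -0.00015, with its low control partner kept. With both arrays of number 2 left out, in the fit with the pair block, it was -0.16.

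The other ST3GAL1 probe sets did not repeat the pattern in all pairs. At 208322_s_at the values were 7.61, 7.59 and 7.97 in siGNE arrays against 8.13, 7.50 and 8.21 in control arrays, with number 2 slightly higher after siGNE. At 225034_at they were 6.34, 5.47 and 8.02 in siGNE arrays against 6.70, 6.08 and 7.54 in control arrays. There number 3 was high in both groups and went the other way, at 0.48, against -0.36 and -0.61 in numbers 1 and 2. Its 95% interval without the pair block, -1.85 to 1.52, was the widest of the 10, and the limma adjusted p of these probe sets were 0.746 and 0.960, or 0.332 and 0.659 with the block.

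ST3GAL2 had 3 tested probe sets, each lower on average and none in all 3 pairs. The brightest, 229336_at, read 6.52, 6.17 and 7.04 in siGNE arrays against 6.77, 7.02 and 7.03 in control arrays. Numbers 1 and 2 were lower and number 3 was level, at 0.01. The difference was -0.36 (SE 0.24, 95% interval -0.94 to 0.21), with a limma adjusted p of 0.565, and 0.245 with the pair block. It was -0.16 without the siGNE array of number 2 and -0.60 without that of number 3, and the mean of the 3 tested probe sets gave -0.18 for the gene. The probe set 217650_x_at, of a class prone to cross-hybridisation, read 6.57, 6.82 and 6.62 in siGNE arrays against 6.84, 6.91 and 6.42 in control arrays, a difference of -0.06 (SE 0.17). The probe set 205346_at read 4.21, 4.06 and 4.18 in siGNE arrays against 4.25, 3.68 and 4.85 in control arrays, a difference of -0.11 (SE 0.29) close to background. The control values of 205346_at spread over more than 1 log2 unit while the siGNE values lay within 0.2 of each other. The untested 238896_at and 228784_at moved by less than 0.1 over the arrays, at 3.71 to 3.78 and 2.57 to 2.61.

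ST3GAL5, GM3 synthase, opens ganglioside synthesis by sialylating lactosylceramide. Its only probe set, 203217_s_at, read 9.22, 9.06 and 9.28 in siGNE arrays against 9.20, 9.13 and 9.21 in control arrays. The values overlapped throughout, and the pairs gave 0.02, -0.08 and 0.07. The difference was 0.01 (SE 0.12, limma adjusted p 0.993, and 0.970 with the pair block). The 95% interval of -0.28 to 0.29, or 82.6% to 122.1% of control, was the narrowest of the tested members without the block. It bounds the change and does not show that there was none.

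**Figure D2:**
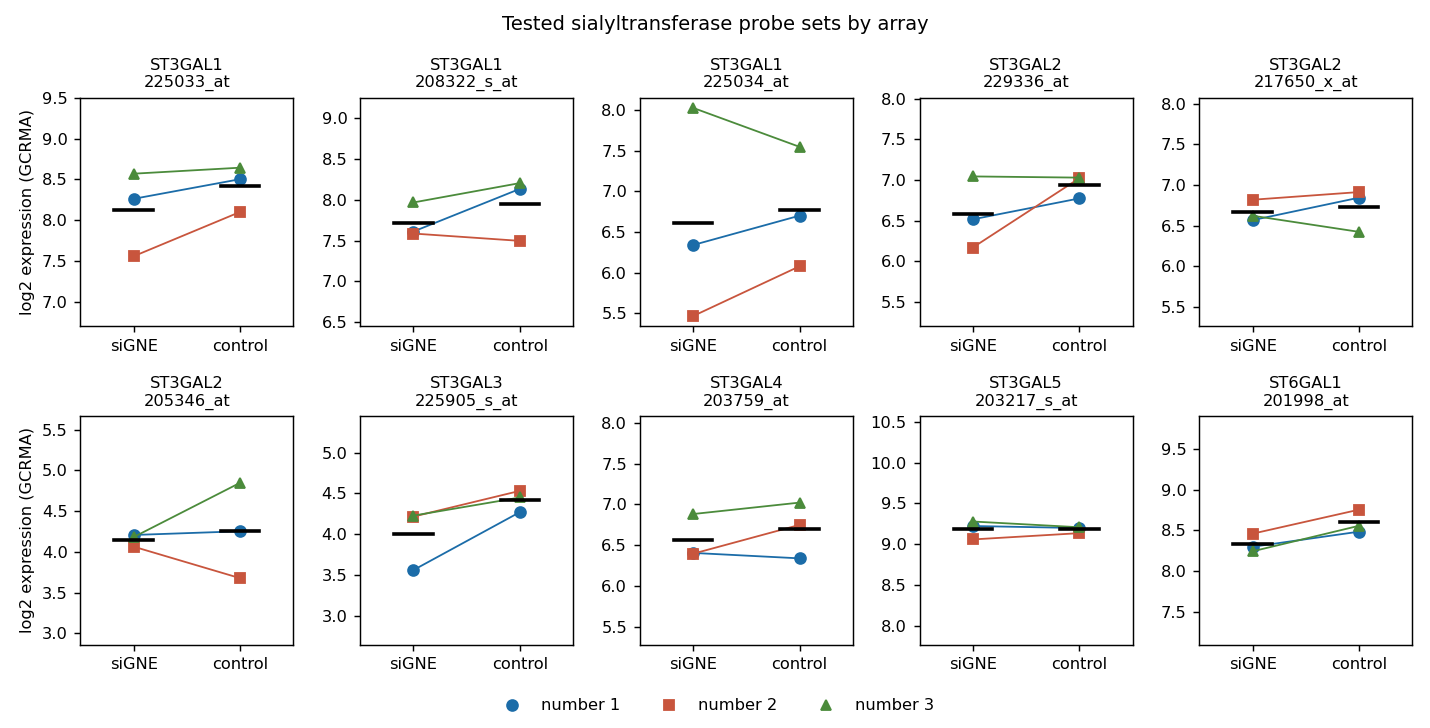
Log2 expression (GCRMA) of the 10 tested probe sets in siGNE arrays (left) and control arrays (right); lines join arrays of one number, black bars are group means, and every panel spans the same height of 2.8 log2 units. Only ST3GAL3 225905_s_at and ST6GAL1 201998_at have all siGNE points below all control points, and number 3 is high in both groups at ST3GAL1 225034_at.

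Over the family, 0 of the 10 tested probe sets were called in limma without the block, where 9 of 22085 tested probe sets were (0.0408%), and 0 of 10 with the pair block, where 2095 were (9.49%). At an unadjusted p under 0.05 limma gave 0 of the 10 without the block, against 14.6% of all tested probe sets, and 2 with it, at ST3GAL3 225905_s_at and ST6GAL1 201998_at, against 31.6% of all. Every siGNE value lay below every control value at 2 of the 10, against 12.0% over all tested probe sets, and above at 0 of the 10, against 8.39%. The siGNE value was lower in all 3 pairs at 3 of the 10, against 29.1% over all, and higher in all 3 at 0, against 26.5%. These shares of the members are near the background or below it, and with 10 probe sets from 6 genes they have no weight as a result about the family.

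On average 9 of the 10 differences were below 0, against 51.4% of all tested probe sets, and the median difference was -0.19 against -0.01. By gene, using the brightest probe set, 5 of 6 were below 0, with a median of -0.28 against -0.02 over all tested genes. The share of all genes below 0 was not counted. The size depends on the probe set: the mean of all tested probe sets gave -0.23 for ST3GAL1 and -0.18 for ST3GAL2. Their brightest probe sets gave -0.29 and -0.36. Some of the 10 read the same gene, so they are not independent of each other. The medians of the members by pair were -0.25, -0.31 and -0.11 for numbers 1, 2 and 3, and 8, 8 and 6 of the 10 were lower. Without the block all 10 of the 95% intervals held 0, and 9 of 10 lay within a 2-fold change in either direction, the exception being ST3GAL1 225034_at. With the block 8 held 0 and all 10 lay within a 2-fold change.

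**Figure D3:**
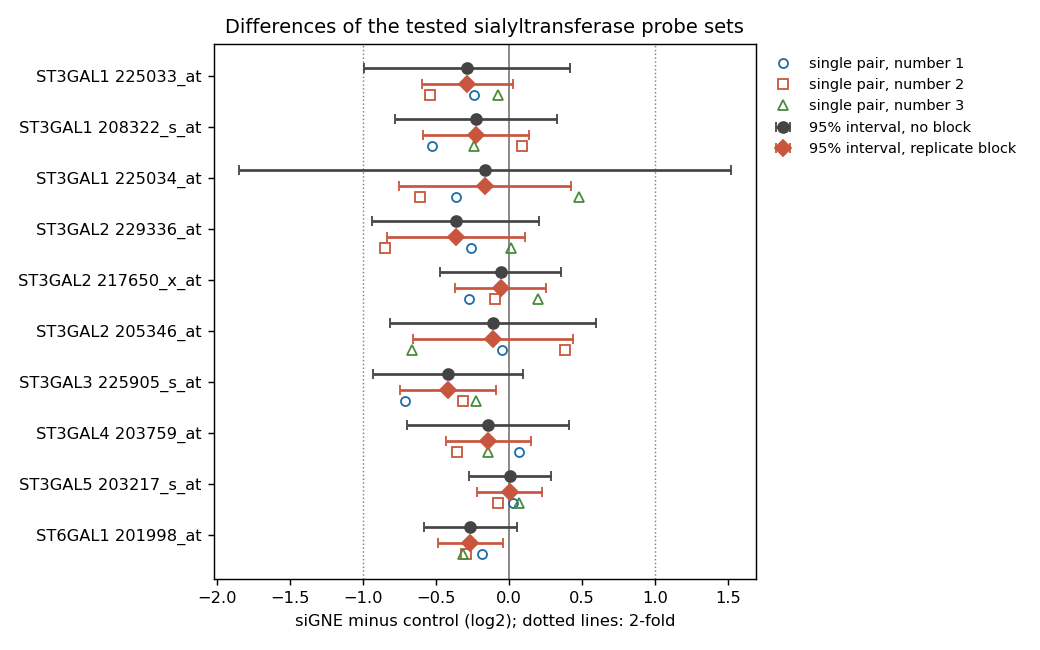
Differences between siGNE and control (log2) of the 10 tested probe sets, with 95% limma intervals without the block (grey circles) and with the replicate block (red diamonds), and the 3 single pairs as open symbols. Without the block each interval crosses 0, and with it those of ST3GAL3 225905_s_at and ST6GAL1 201998_at do not; dotted lines mark a 2-fold change.

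The spread between array numbers was set beside the difference between the siRNAs as a description. The range between the means of the 3 numbers was larger than the size of the difference between siGNE and control at 9 of the 10 probe sets, against 74.6% of all tested probe sets, with ST6GAL1 201998_at as the exception (0.22 against 0.26). It was 2.01 log2 units at ST3GAL1 225034_at, 0.78 at ST3GAL1 225033_at, 0.58 at ST3GAL4 and 0.15 at ST3GAL5. The median of this range was 0.50 over the members and 0.39 over all tested probe sets. A range over 3 means of fewer arrays tends to exceed a difference of group means even with no effect of either. The count therefore does not show whether array number or siRNA had the larger effect.

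Of the other sialyltransferases, 11 of 12 had a probe set and 3 were tested, and 0 passed in either limma fit. ST6GALNAC4, which adds sialic acid to the sialylated core 1 structure that ST3GAL1 makes, read 9.09, 8.94 and 9.24 in siGNE arrays against 9.85, 9.26 and 9.51 in control arrays. Its groups did not overlap, and the difference was -0.45 (SE 0.18, limma adjusted p 0.340, and 0.0909 with the pair block). ST6GALNAC6 differed by 0.20 (SE 0.16) and ST6GALNAC1, the sialyl-Tn synthase, by -0.18 (SE 0.27). The ST8SIA genes, which encode α2,8 sialyltransferases, had no tested member.

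Genes that supply the donor did not pass apart from GNE with the block. All 5 were tested. The nucleus-to-Golgi steps are served by CMAS, which makes CMP-sialic acid, at 0.01 (SE 0.14), and SLC35A1, which carries it into the Golgi, at 0.25 (SE 0.19). The phosphatase NANP differed by -0.24 (SE 0.18) and the synthase NANS by 0.09 (SE 0.18). Of the genes of removal and recycling, 6 of 9 were tested and 0 passed. CTSA, which protects the lysosomal sialidase, read 10.90, 10.92 and 10.79 in siGNE arrays against 10.61, 10.64 and 10.49 in control arrays, without overlap (0.29, SE 0.11, limma adjusted p 0.318, and 0.0869 with the block). The plasma membrane sialidase NEU3 differed by -0.45 (SE 0.17, limma adjusted p 0.311, and 0.0972 with the block). The lysosomal sialic acid exporter SLC17A5 differed by 0.47 (SE 0.20, limma adjusted p 0.355, and 0.0586 with the block). Its groups overlapped, though it was higher in all pairs.

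Of 12 genes in the list of galactosyltransferases that build the acceptors, which includes the chaperone C1GALT1C1, 10 were tested and 0 passed in either limma fit. C1GALT1C1, the chaperone that core 1 synthesis needs, read 8.90, 8.58 and 8.75 in siGNE arrays against 9.18, 9.01 and 9.19 in control arrays. The groups did not overlap, and the difference was -0.38 (SE 0.13, limma adjusted p 0.277, and 0.0612 with the pair block). B3GALT4, a ganglioside galactosyltransferase, differed by 0.56 (SE 0.25) without overlap, and B4GALT1, which makes the type 2 acceptor of ST6GAL1, by 0.35 (SE 0.27). Of 4 genes for Golgi retention and release, all were tested and 0 passed: BACE1, a protease known to cleave ST6GAL1, differed by 0.19 (SE 0.11), SPPL3 by 0.08 (SE 0.11) and GOLPH3L by 0.09 (SE 0.16).

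Among 8 fucosyltransferases of terminal chains, 5 were tested and 1 rose with the pair block, FUT3. This enzyme adds fucose to type 1 chains already sialylated by enzymes such as ST3GAL3 to complete sialyl Lewis a. It read 9.65, 8.79 and 9.14 in siGNE arrays against 8.52, 8.02 and 8.19 in control arrays, with all siGNE values above all control values. The difference was 0.95 (SE 0.25, limma adjusted p 0.183), and the limma adjusted p with the block was 0.0254 (SE 0.11). FUT3, FUT5 and FUT6 are close paralogs with near-identical sequence, so the assignment of 214088_s_at to FUT3 is uncertain. FUT4 differed by -0.42 (SE 0.26) and FUT1 by 0.49 (SE 0.33).

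In all, of 50 related genes 49 had a probe set and 33 were tested, with a median difference of 0.01. With the block there were 1 rise and 1 fall, FUT3 and the siRNA target GNE, where 9.49% of all tested probe sets were called. Without it there were 0 calls, and 6 had an unadjusted p under 0.05 in limma, against 14.6% of all tested probe sets. These counts are near the background and have no weight as a result about these genes. By the brightest probe set of each gene, the members' median was -0.28 beside the 0.01 of these genes, and -0.02 over the 10733 genes tested. The members' median depends on the probe sets used, at -0.19 over their 10 tested probe sets, of which 0 passed.

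**Figure D4:**
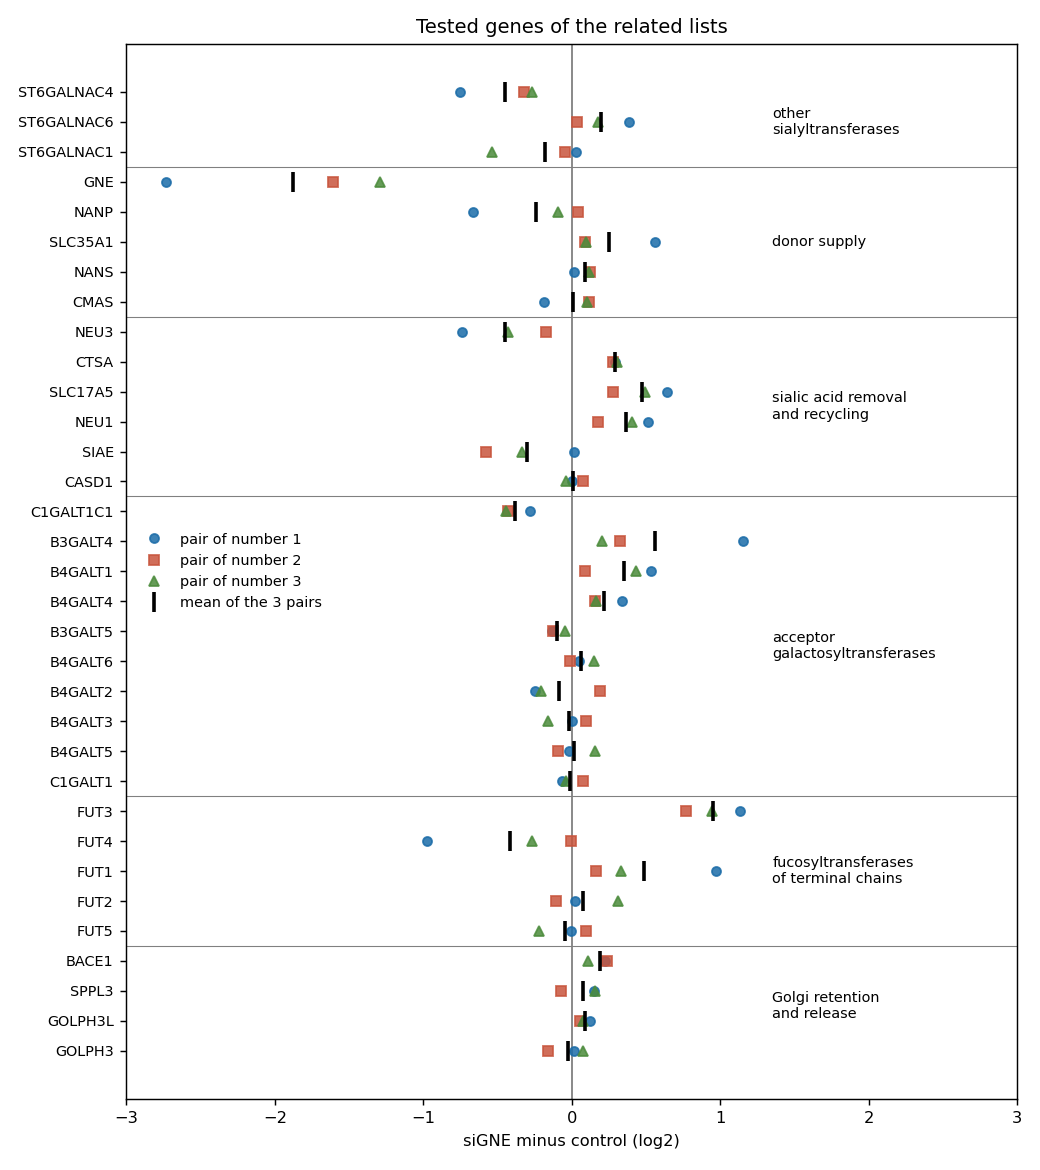
Differences between siGNE and control (log2) of the 33 tested related genes, 1 symbol per pair and a black bar for the mean of the 3 pairs, grouped by list. GNE lies lowest in all 3 pairs and FUT3 is above 0.7 in each, while most other means lie within 0.5 of 0.

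The genes whose values most resembled a member's over the 6 arrays were taken for the 3 brightest members, ST3GAL5, ST6GAL1 and ST3GAL1, by Pearson's r over 10732 other tested genes. For ST6GAL1 they were CD69 (r = 0.993), TMX4 (0.990) and RNF157 (0.989). CD69 differed by -1.09 between siGNE and control and fell with the pair block (limma adjusted p 0.0277, and 0.216 without it). For ST3GAL5 they were TEF (0.987), MYO1C (0.986) and NBL1 (0.972), and for ST3GAL1 they were PSMB5 (0.990), CFAP298 (0.985) and SLC4A2 (0.985). With 6 arrays that share pairs, 47, 15 and 21 genes exceeded an r of 0.95 for ST6GAL1, ST3GAL5 and ST3GAL1, so these likenesses are a description of these arrays.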

How the data were processed

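Expression was measured on 6 Affymetrix arrays from 300 ng of total RNA each. The authors deposited log2 values for 54675 probe sets, made with GCRMA per the submitters' processing notes. The GCRMA version, the chip definition and joint or separate processing of the arrays were not stated there. Their range showed a log2 scale (0.612 to 16.3, array medians 2.96 to 3.02). No re-normalization was applied.

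Of the probe sets, 41097 had 1 gene symbol in the platform annotation, 1801 several and 11777 none. Symbols were updated by gene identifier from RefSeq (GRCh38.p14), and no member shared a probe set with another gene. The test was limma 3.58.1 in R 4.3.3 (lmFit, eBayes), siGNE minus control on the log2 scale, with Benjamini-Hochberg adjustment over the 22085 probe sets whose 6-array mean exceeded 4, with 62 control probe sets left out. A call means an adjusted p under 0.05. Fold changes are differences of log2 values. The main fit had no pair term, and a second fit took the array number as a block. Deviations from the group means correlated between arrays of the same number at 0.58, 0.71 and 0.83, and at -0.64 to 0.17 between different numbers, so the titles' numbers were taken to pair the arrays. The fit was tested on simulated data.

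Each gene of the related lists was read by its brightest probe set, without those ending in _x_at where another existed. Named are all members with all probe sets, GNE, each related gene called in either fit, and otherwise the 3 of its list with the smallest unadjusted p, plus markers; CD69 and other likenesses follow from ranks of r. The ST8SIA genes, CMAS, NANP, NANS, SLC35A1, FUT1 and FUT4 fall outside this rule and were named after their values were seen. The members and lists were chosen with earlier results of these data known. Alternatives covered filters, a floor, normalization, variance models, array weights, the block, the threshold and arrays left out.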

Additional observations from a re-analysis of the deposited data

How the results depend on the processing

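In each alternative setting run, 0 of the 10 tested member probe sets passed in limma, including an adjusted p under 0.1, and the lowest adjusted p was 0.101. Single differences kept their sign in 184 of 200 recomputations. Many of these could not change it, since filters, variance models and the block leave the difference itself unchanged. With array weights ST3GAL2 205346_at was 0.13 and ST3GAL5 -0.0057. Leaving out single arrays gave -0.87 to 0.41 for ST3GAL1 225034_at, -0.21 to 0.035 for ST3GAL2 217650_x_at, -0.40 to 0.19 for ST3GAL2 205346_at, -0.33 to 0.017 for ST3GAL4, -0.040 to 0.070 for ST3GAL5, -0.51 to -0.00015 for ST3GAL1 225033_at, -0.45 to -0.094 for ST3GAL1 208322_s_at and -0.60 to -0.16 for ST3GAL2 229336_at. Leaving out a pair in the fit with the replicate block gave 0.052 for ST3GAL2 217650_x_at and -0.0033 for ST3GAL5 without number 1, 0.059 for ST3GAL1 225034_at without number 2, and 0.17 for ST3GAL2 205346_at and -0.026 for ST3GAL5 without number 3. Those were the differences whose sign changed, and the other probe sets kept theirs in those fits. There ST3GAL2 229336_at ran from -0.55 to -0.12, ST6GAL1 201998_at from -0.30 to -0.24 and ST3GAL3 225905_s_at from -0.51 to -0.27. ST3GAL1 225033_at ran from -0.39 to -0.16, ST3GAL1 208322_s_at from -0.38 to -0.074 and ST3GAL4 from -0.25 to -0.037. The causes of these shifts were not tested. ST6GAL1 201998_at ran from -0.33 to -0.19 with single arrays left out and ST3GAL3 225905_s_at from -0.53 to -0.20. The filter at a mean above 6 left out 2 of the 10.

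Over all probe sets limma called 9, and 2095 with the replicate block, 3 with no filter, 35 at a mean above 6, 20 after quantile normalization, 15 after median centring, 49 with a trended variance, 276 with array weights and 219 at an adjusted p under 0.1. Leaving out 1 array gave 0 calls (2023 to 3508 at an unadjusted p under 0.05), and leaving out a pair with the block gave 0 (5022 to 5529); these fits have fewer arrays. Of the related genes 2 were called with the replicate block. The block changed no call of a member. Values near 4, as of ST3GAL3, limit what can be detected.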
